A study of Mus musculus with 6 samples.

Results

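Chemokines are small secreted proteins that attract leukocytes, and tumour cells can release them. The 10 chemokine genes Cx3cl1, Ccl2, Ccl5, Ccl7, Cxcl1, Cxcl5, Cxcl10, Cxcl12, Cxcl14 and Cxcl16 are described here, out of 35905 genes to which transcripts were matched. They were taken by name, by a rule that uses no measured value of its own, though earlier results of these data were known, and 6 of the 10 had enough reads to be tested among 13247 tested genes. RNA was sequenced from cultures of the mouse mammary tumour line EO771 in cells labelled EO771-tdT-LM2 (LM2) and in cells labelled EO771-tdT-Parental (Parental), with 3 libraries of each. Both lines carry the tag tdT in their names and the genotype label WT, and the label Ac6 stands in the Parental titles only, with no meaning given. How LM2 was obtained, and whether a line is a clone, is not stated in the sources used here. The labels name no treatment, and the cells were grown for 48 h to 75% confluence with 10% serum. Since the labels do not tie the libraries to separate cultures, a p-value here reflects the variation among 6 libraries, and that variation may be technical.

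Chemokines are sorted by the spacing of the first cysteines of the protein into CC (Ccl genes), CXC (Cxcl genes) and CX3C (Cx3cl1) families. They act on G protein-coupled receptors of leukocytes and are held on cell surfaces by heparan sulfate. Ccl2 and Ccl7 draw monocytes through the receptor Ccr2, Ccl5 draws T cells and monocytes, and Cx3cl1 acts through Cx3cr1. Cxcl1 and Cxcl5 draw neutrophils through Cxcr2, Cxcl10 draws activated T cells through Cxcr3, and Cxcl12 acts through Cxcr4 and is scavenged by Ackr3. Cx3cl1 and Cxcl16 are made as membrane proteins on a mucin stalk and are released by the proteases ADAM10 and ADAM17. Transcription of many chemokine genes is induced by NF-kB, and that of Cxcl10 also by interferon through STAT and IRF factors.

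The libraries held 33922699 to 45849019 estimated counts, and mitochondrial genes took 1.06% to 1.43% of them. Of the epithelial markers Krt8 reached 568 ± 10.4 CPM (counts scaled to library size, TMM-adjusted) in LM2 and 420 ± 6.61 CPM in Parental (SD, n = 3 each), while Krt18, Krt19 and Cdh1 were below 1 CPM in both lines. In Krt8, 36.05% of the 31-base words of its transcripts also occur in other genes, among them Krt8-ps, so its level is uncertain. All 4 tested epithelial markers were called by edgeR, Krt8 and Epcam higher in LM2 and Erbb2 and Esr1 lower, as were 62.4% of all tested genes in either direction. Epcam, an epithelial adhesion gene, had 15.0 CPM in LM2 and 0.154 CPM in Parental, Erbb2 41.4 CPM in LM2 and 53.3 CPM in Parental, and Esr1 0.187 CPM in LM2 and 0.537 CPM in Parental. The summed level of 12 leukocyte markers was 4.79 to 5.07 CPM in LM2 libraries and 4.66 to 5.10 CPM in Parental libraries. All 3 tested leukocyte markers were called by edgeR, again beside 62.4% of all tested genes. S100a8 (3.09-fold) and Cd68 (1.53-fold) were higher in LM2 and Lyz2 3.03-fold lower. S100a8 had 1.08 CPM in LM2 and 0.351 CPM in Parental, Cd68 2.68 CPM in LM2 and 1.75 CPM in Parental, and Lyz2 0.831 CPM in LM2 and 2.51 CPM in Parental. Adgre1 and S100a9 were at 0 counts in every library, and the pan-leukocyte gene Ptprc was at 0.0745 CPM in LM2 and 0.0651 CPM in Parental. The summed level of 6 endothelial markers was 4.12 to 4.60 CPM in LM2 and 3.40 to 4.19 CPM in Parental. Most of it came from Pecam1, at 3.59 CPM in LM2 and 3.49 CPM in Parental, which did not pass (edgeR adjusted p = 0.816). Cdh5 was called higher (3.66-fold) at 0.668 CPM in LM2, against 0.180 CPM in Parental, and Emcn and Cldn5 were at 0 counts throughout. The summed level of 8 fibroblast markers was 1512 to 1604 CPM in LM2 and 829 to 846 CPM in Parental. Most of it came from the collagen gene Col1a1 at 1330 CPM in LM2 and 659 CPM in Parental, while Col1a2 fell to 0.232 CPM in LM2, against 0.926 CPM in Parental. Pdgfra was called higher, at 181 CPM in LM2 and 126 CPM in Parental. Pdgfrb, at 47.9 CPM in LM2 and 49.1 CPM in Parental, and Thy1, at 1.73 and 1.78 CPM, did not pass. The others of the list were near 0. Dcn had 0.0781 CPM in LM2 and 0.0816 CPM in Parental. Lum and Fap had 0 counts in LM2, and 2 and 3 summed counts in Parental. Esr1, S100a8, Cdh5 and Col1a2 are low enough to have become testable through the line where they are higher. Their directions are a description only. The part of all these markers in the chemokine results was not tested.

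Cx3cl1, Ccl2, Ccl5 and Ccl7 were higher in LM2 cells, by 1.47-fold to 2.84-fold. None of the 10 was called lower by edgeR, DESeq2 or limma, and none was lower at an unadjusted p below 0.05 by edgeR. Cxcl10 and Cxcl16 were tested and did not pass, Cxcl1 and Cxcl5 were close to undetected, and Cxcl12 and Cxcl14 had 0 counts in every library. Transcripts of 6 of the 10 were thus measured at a testable level in these tumour cells. A gene was called at an adjusted p below 0.05 in the edgeR quasi-likelihood fit, with p-values adjusted by Benjamini-Hochberg over the tested genes. By this rule 62.4% of all tested genes were called, 31.4% higher and 31.1% lower in LM2, so a called difference was common between these lines. For Cx3cl1, Ccl2, Ccl5 and Ccl7 every LM2 library was above every Parental library in CPM, a pattern shown by 33.4% of tested genes, and 33.6% showed the opposite pattern, which none of the 6 tested chemokines did. Genes that did not reach the low-count filter could not be called, and the 4 calls among 6 tested genes are a description and not a test of the set. Ccl5, with 12, 15 and 6 counts in Parental libraries, can have passed that filter through LM2, where it was higher. The median log2 fold change of the 6 was 0.94, against -0.0037 over all tested genes. In RNA from whole cultures, more expressing cells and more RNA per cell cannot be told apart.

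**Figure D1:**
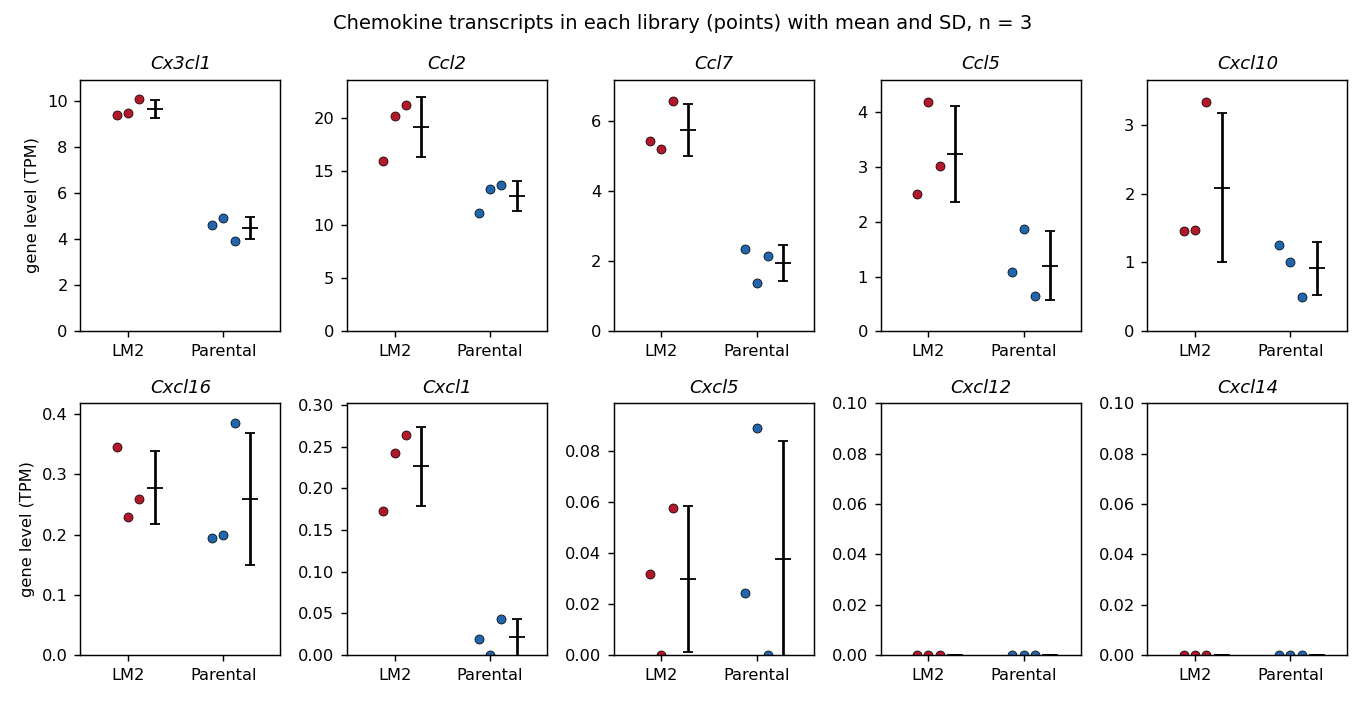
Level of each chemokine gene in TPM (length- and depth-scaled transcript abundance) in every library, LM2 at the left of each panel and Parental at the right, with the mean and SD beside the points (n = 3, bars cut at 0). Cx3cl1, Ccl2, Ccl7 and Ccl5 points of LM2 lie above all Parental points, as do those of Cxcl10 and Cxcl1, Cxcl16 and Cxcl5 points overlap, and Cxcl12 and Cxcl14 lie at 0.

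The regulatory sequence in front of a gene start is shown for 3 chemokines, Cx3cl1 because it had the smallest adjusted p of the set, and Cxcl1 and Cxcl10 because they had reads and carry motif letters of the inducing pathways. Cxcl14, with 0 counts in every library, also carries such letters and is not shown. The sequences are from RefSeq on build GRCm38.p6 and run 5′ to 3′ on the gene's strand, from 250 bases before to 50 bases after the annotated start. The counts were made on build GRCm39, and these coordinates belong to GRCm38.p6 only. The windows are chr8:94771930-94772229 on the plus strand for Cx3cl1, chr5:90890995-90891294 on the plus strand for Cxcl1 and chr5:92348840-92349139 on the minus strand for Cxcl10. Capitals mark matches on either strand to a kB-type motif (GGGA, any 4 bases, CC), an interferon response motif (GAAA, any 2 bases, GAAA) or TATAAA.
Cx3cl1: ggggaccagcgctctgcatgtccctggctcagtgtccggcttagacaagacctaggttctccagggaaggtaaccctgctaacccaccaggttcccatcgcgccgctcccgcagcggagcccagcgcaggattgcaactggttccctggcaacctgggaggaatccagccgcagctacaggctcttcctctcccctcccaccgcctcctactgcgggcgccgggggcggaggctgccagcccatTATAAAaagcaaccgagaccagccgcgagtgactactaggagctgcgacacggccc
Cxcl1: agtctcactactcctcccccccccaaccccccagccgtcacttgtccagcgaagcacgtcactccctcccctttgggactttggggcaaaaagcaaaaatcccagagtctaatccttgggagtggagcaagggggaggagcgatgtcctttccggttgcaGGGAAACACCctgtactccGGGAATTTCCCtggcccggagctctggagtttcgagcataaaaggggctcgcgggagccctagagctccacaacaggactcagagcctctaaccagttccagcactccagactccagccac
Cxcl10: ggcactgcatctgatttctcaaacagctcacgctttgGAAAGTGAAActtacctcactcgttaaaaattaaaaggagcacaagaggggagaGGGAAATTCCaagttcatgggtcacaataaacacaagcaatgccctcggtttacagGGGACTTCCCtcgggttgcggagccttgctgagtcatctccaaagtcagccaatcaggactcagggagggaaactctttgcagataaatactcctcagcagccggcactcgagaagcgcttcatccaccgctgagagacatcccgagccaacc
Of the 10 genes 5 were found in the sequence table, and the others present were Cxcl12 and Cxcl14. The kB-type motif occurred in 2 of these 5 windows, Cxcl1 and Cxcl10, and in 20.7% of 32851 promoter windows. In Cxcl1 matches began 90 and 71 bases before the start, and the second was overlapped by a match on the other strand. In Cxcl10 matches began 159 and 103 bases before the start, the second on both strands. The interferon response motif occurred in Cxcl10, 213 bases before the start, and in Cxcl14, and in 3.44% of all windows, and TATAAA occurred in Cx3cl1, 6 bases before the start, and in 13.6%. Matched letters describe these windows and do not show binding.

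Among the ligands of monocytes, Ccl2 (chromosome 11) had the highest level per length of the 10 in both lines. It stood at 16.0, 20.2 and 21.3 TPM in LM2 libraries, against 11.1, 13.4 and 13.7 TPM in Parental libraries. All LM2 libraries were above all Parental libraries. In counts, Ccl2 had 226, 271 and 328 in LM2 and 208, 200 and 231 in Parental. After scaling for depth it rose 1.47-fold in LM2, with a log2 fold change of 0.56 ± 0.12 (SE, edgeR adjusted p = 0.000282). Its mean TPM in LM2 lay above that of 49.8% of the tested genes, and in Parental above that of 42.2%.

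Ccl7, which shares the receptor Ccr2 with Ccl2 and lies beside it on chromosome 11, had a fold close to that of Ccl5, and without Parental replicate 2 the order of both turned, with log2 fold changes of 1.31 for Ccl7 and 1.72 for Ccl5. It stood at 5.43, 5.19 and 6.57 TPM in LM2 libraries, against 2.35, 1.37 and 2.14 TPM in Parental libraries. The lines did not overlap, and the lowest LM2 library was above the highest Parental library. Ccl7 counts were 75, 68 and 99 in LM2 and 43, 20 and 35 in Parental. It rose 2.84-fold, a log2 fold change of 1.51 ± 0.25 (SE, edgeR adjusted p = 1.4e-05). The TPM of Ccl2 was 2.95, 3.89 and 3.24 times that of Ccl7 in LM2 libraries and 4.72, 9.76 and 6.41 times in Parental libraries. That ratio was lower in each LM2 library than in any Parental library, with a two-sided exact permutation p = 0.1, the smallest that 3 against 3 libraries allow. The other genes of the same chemokine cluster were near 0, with summed counts over 3 libraries of 2 in LM2 and 0 in Parental for Ccl11, 1 and 0 for Ccl8, 2 and 0 for Ccl1, and 0 in both for Ccl12.

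Cx3cl1 (chromosome 8), also called fractalkine, was the second in level per length and the first in CPM. Its level was 9.38, 9.47 and 10.1 TPM in LM2 libraries, against 4.60, 4.90 and 3.94 TPM in Parental libraries. Each LM2 library was well above each Parental library. It averaged 16.0 ± 1.65 CPM in LM2 and 7.14 ± 0.221 CPM in Parental (SD, n = 3 each). Cx3cl1 rose 2.24-fold, a log2 fold change of 1.16 ± 0.08 (SE, edgeR adjusted p = 2.87e-11). The TPM of Ccl2 was 1.71, 2.13 and 2.11 times that of Cx3cl1 in LM2 and 2.41, 2.72 and 3.48 times in Parental, without overlap (two-sided exact permutation p = 0.1, again the smallest possible).

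Of 6 annotated Cx3cl1 transcripts, the protein-coding one of 3315 bases held most reads. It received 576, 567 and 518 estimated counts in LM2 and 322, 224 and 289 in Parental. By TPM it made up 78.3% ± 11.8 of the gene in LM2 and 72.4% ± 13.1 in Parental (SD, n = 3 each), since a few reads on transcripts of at most 780 bases weigh much per length. The share in the lines overlapped, from 64.7% to 85.7% in LM2 and from 59.2% to 85.3% in Parental.

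Ccl5 (chromosome 11), a T cell and monocyte attractant, was low in both lines. It stood at 2.50, 4.20 and 3.02 TPM in LM2 libraries, against 1.09, 1.87 and 0.635 TPM in Parental libraries. The lowest LM2 library was above the highest Parental library. The values rest on 19, 30 and 25 counts in LM2 and 12, 15 and 6 counts in Parental. Ccl5 rose 2.54-fold, a log2 fold change of 1.35 ± 0.40 (SE, edgeR adjusted p = 0.00532). A gene this low can pass the low-count filter through the line where it is higher, so the direction is a description only. Where genes had to reach 1 CPM in 3 libraries, Ccl5 was not tested and 3 of the 10 genes were called. Its neighbours in the other CC cluster of chromosome 11 were lower still, with summed counts of 23 in each line for Ccl9, 5 in LM2 and 4 in Parental for Ccl4, and 2 and 0 for Ccl3.

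**Figure D2:**
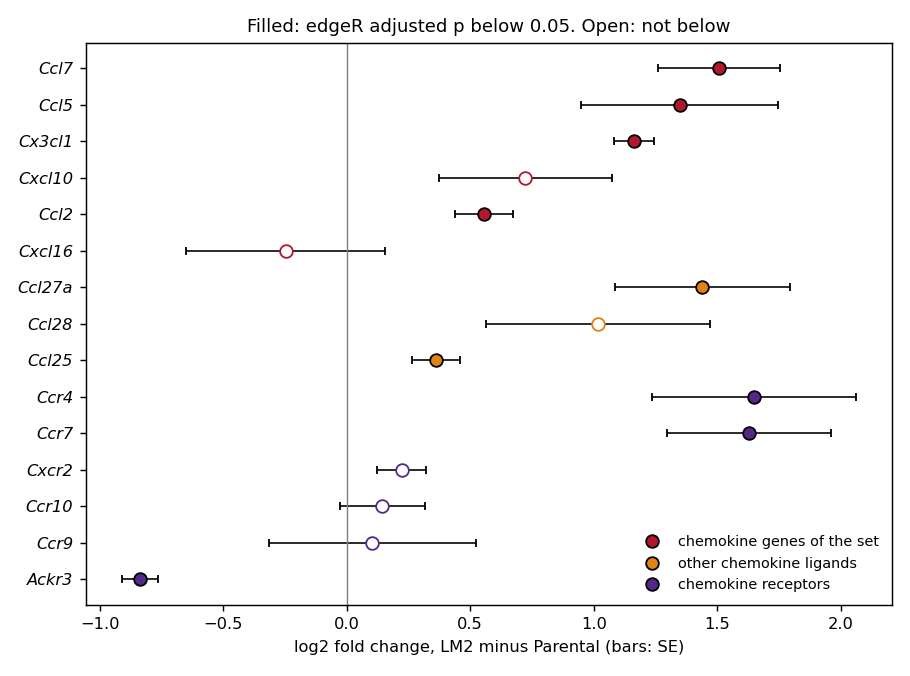
Log2 fold change, LM2 minus Parental, with its standard error, of the tested chemokine genes of the set, the other tested chemokine ligands and 6 of the 7 tested chemokine receptors; filled points had an edgeR adjusted p below 0.05. Ccl7, Ccl5, Cx3cl1 and Ccl2 are filled and lie at 0.56 to 1.51, Cxcl10 and Cxcl16 are open, and the receptor Ackr3 lies at -0.84.

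Cxcl10 (chromosome 5), the interferon-inducible ligand of Cxcr3, did not pass. It had 0.868, 0.593 and 0.707 CPM in LM2 libraries, against 0.418, 0.606 and 0.297 CPM in Parental libraries. Parental replicate 2 lay above 1 LM2 library, so the lines overlapped in CPM. The log2 fold change was 0.72 ± 0.35 (SE, edgeR adjusted p = 0.0776). Without Parental replicate 2 it passed, with a log2 fold change of 1.0 (edgeR adjusted p = 0.0388), and adjusted p-values over all settings ran from 0.0388 to 0.273. In TPM the libraries stood at 1.45, 1.47 and 3.34 in LM2 and 1.25, 1.0 and 0.491 in Parental, without overlap. The highest of these, LM2 replicate 3, took 77.6% of its Cxcl10 TPM from a retained-intron transcript of 344 bases with 10.1 estimated counts. The same transcript made up 37.7% in LM2 replicate 2 and 54.1% in Parental replicate 1, and had 0 counts in the other libraries. The other interferon-inducible Cxcr3 ligands on chromosome 5 were below the low-count filter, with 12 summed counts in LM2 and 2 in Parental for Cxcl9, and 13 and 6 for Cxcl11.

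Cxcl16 (chromosome 11), the membrane-bound ligand of Cxcr6, was near the floor of detection. It had 0.347, 0.267 and 0.314 CPM in LM2 libraries, against 0.330, 0.303 and 0.471 CPM in Parental libraries, with overlap. Its log2 fold change was -0.25 ± 0.40 (SE, edgeR adjusted p = 0.617), and its direction reversed on the TPM scale and with an offset for effective length. Of its 31-base words 18.5% also occur in Zmynd15, which overlaps it on the opposite strand, so its level is uncertain. Cxcl10 shares 4.47% of such words with Art3 on the opposite strand, and the other 8 genes share under 1%.

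The neutrophil chemokines were close to undetected. Cxcl1 had 3, 4 and 6 counts in LM2 libraries, against 1, 0 and 2 counts in Parental libraries. Every LM2 library was above every Parental library, by 1 count at the nearest. Without a low-count filter its log2 fold change was 2.15 ± 1.14 (SE, edgeR adjusted p = 0.138), while limma on log2(TPM + 1) with no filter gave 0.26 ± 0.04 (adjusted p = 0.0044). In LM2, 11.2 of its 13 summed counts lay on the protein-coding transcript of 953 bases. All 3 summed counts in Parental lay on a retained-intron transcript of 1871 bases. TPM depends on these lengths, and their part in the limma result was not tested. Cxcl5 had 1, 0 and 2 counts in LM2 libraries, against 1, 3 and 0 counts in Parental libraries. The related genes Cxcl2, with 6 summed counts in LM2 and 0 in Parental, and Cxcl3, with 1 in each line, were also below the filter.

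Cxcl12 (chromosome 6), a ligand of stromal cells that guides cells with Cxcr4, and Cxcl14 (chromosome 13), made by many epithelia, had 0 counts on all their transcripts in the 6 libraries. A count of 0 allows up to 3 counts, which is 0.0786 to 0.0884 CPM in LM2 libraries and 0.0654 to 0.0820 CPM in Parental libraries, counting error only. Transcripts of these genes were therefore not detectable at this depth in either line.

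The order of mean TPM was the same in both lines for the first 6 genes, Ccl2, Cx3cl1, Ccl7, Ccl5, Cxcl10 and Cxcl16. In LM2 each of these lay above the next over all libraries, except that Ccl5 overlapped Cxcl10 and Cxcl16 overlapped Cxcl1, the gene after it. In Parental Ccl7 overlapped Ccl5 and Ccl5 overlapped Cxcl10. The sum over the 10 genes was 35.3, 41.0 and 44.9 TPM in LM2 libraries, against 20.6, 22.8 and 21.4 TPM in Parental libraries. Ccl2 made up 47.3% ± 1.97 of that sum in LM2 and 58.9% ± 5.23 in Parental (SD, n = 3 each). Ccl7 made up 14.2% ± 1.41 in LM2 and 9.14% ± 2.80 in Parental. Cx3cl1 made up 24.0% ± 2.20 in LM2 and 20.8% ± 2.05 in Parental.

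**Figure D3:**
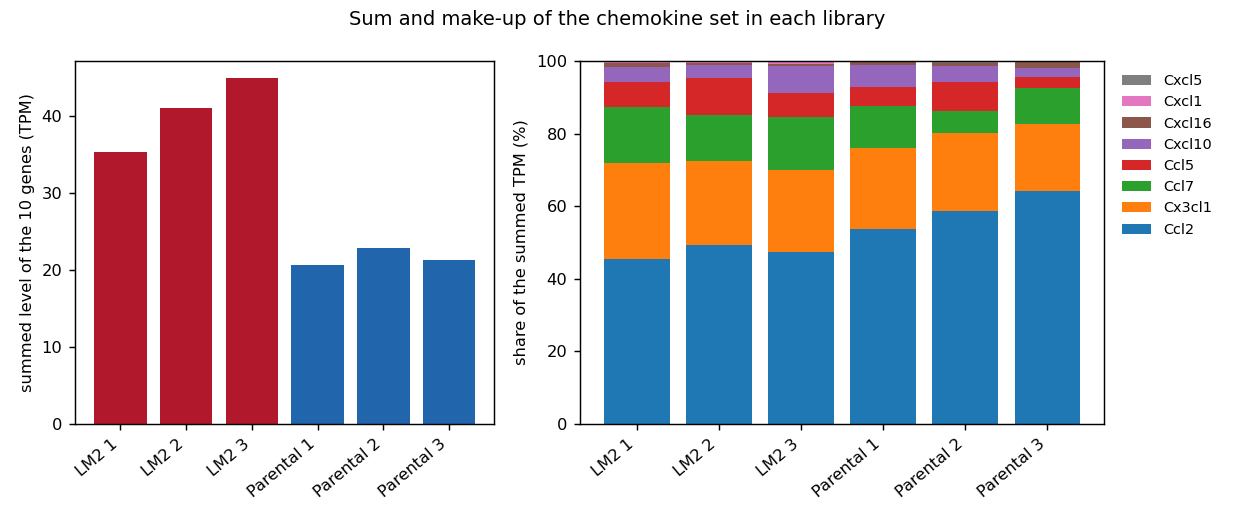
Summed TPM of the 10 chemokine genes (left) and the share of each gene in that sum in percent (right), 1 bar per library, the 3 LM2 libraries before the 3 Parental libraries. The LM2 bars reach 35.3 to 44.9 TPM and the Parental bars 20.6 to 22.8 TPM, and the Ccl2 part spans 45.3% to 49.2% in LM2 and 53.8% to 64.2% in Parental.

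The genes whose log2 CPM followed Cx3cl1 most closely over the 6 libraries were Far1, Tpm2 and Klhl21, each with a Pearson correlation of 0.999. These libraries fall into 2 lines, and 2079 tested genes correlated with Cx3cl1 above 0.95, so the correlation is a description and does not set these genes apart. Far1 had 124 ± 2.39 CPM in LM2 and 108 ± 0.485 CPM in Parental, Tpm2 151 ± 8.22 and 103 ± 1.15 CPM, and Klhl21 159 ± 6.92 and 113 ± 0.936 CPM (SD, n = 3 each). In the authors' deposited table of log2 fold changes, whose base and direction were inferred from their closeness to the values computed here, 3 of the 10 genes are listed, Cx3cl1 at 1.08, Ccl2 at 0.55 and Ccl7 at 1.49.

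**Figure D4:**
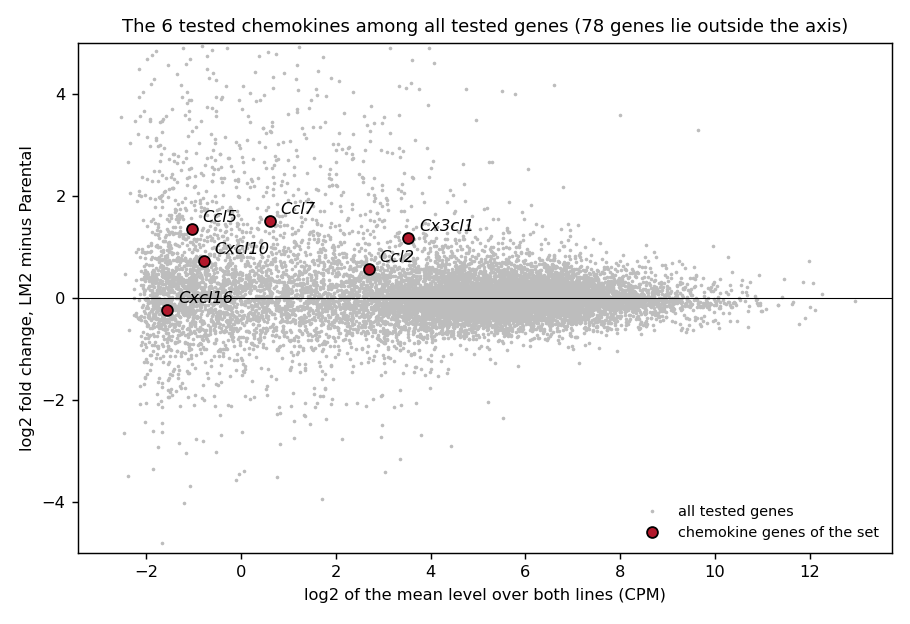
Log2 fold change, LM2 minus Parental, of all 13247 tested genes (grey) against the log2 of the mean CPM of both lines, with the 6 tested chemokine genes in red; 78 genes lie outside the axis. Cx3cl1 and Ccl2 lie at the higher levels of the 6, and Ccl5, Cxcl10 and Cxcl16 below 1 CPM.

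Of 28 other chemokine ligands 3 were tested, of which 2 rose and none fell, with a median log2 fold change of 1.02 over the 3. Over all tested genes 31.4% rose and 31.1% fell. All 3 had log2 fold changes above 0. Ccl27a had 29, 33 and 51 counts in LM2 and 27, 9 and 12 in Parental, and Ccl28 23, 15 and 12 against 5, 11 and 12. Genes this low can pass the low-count filter through the line where they are higher, so the directions of the 3 are a description only. Ccl25, which guides thymocytes and gut lymphocytes, had 7.76, 9.99 and 10.1 CPM in LM2 libraries, against 7.23, 7.44 and 7.04 CPM in Parental libraries. It rose 1.29-fold (log2 0.36 ± 0.10 SE, edgeR adjusted p = 0.00278), and it overlaps Elavl1 on the opposite strand. The authors' deposited table lists Ccl25 at a log2 fold change of 0.18. Ccl27a rose 2.71-fold (edgeR adjusted p = 0.00124) to 1.05 ± 0.256 CPM in LM2, against 0.380 ± 0.187 CPM in Parental, but 57.0% of its 31-base words recur elsewhere, among others in Ccl27b. Ccl28, a mucosal chemokine, had 0.475 CPM in LM2 and 0.237 CPM in Parental and did not pass (edgeR adjusted p = 0.0571).

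Of 23 chemokine receptors 7 were tested, and 2 rose, 1 fell and 4 did not pass, while 31.4% of all tested genes rose and 31.1% fell. Ackr3, an atypical receptor that takes up Cxcl12 and Cxcl11 without G protein signalling, had the highest CPM of the receptors in both lines. It had 7.90, 8.60 and 8.49 CPM in LM2 libraries, against 15.2, 14.0 and 15.4 CPM in Parental libraries. The lines did not overlap, and Ackr3 fell by 0.84 ± 0.07 on the log2 scale (SE, edgeR adjusted p = 9.23e-10), being 1.79-fold lower in LM2. Ccr7, the lymph node homing receptor, rose 3.09-fold (edgeR adjusted p = 0.000202) to 0.916 ± 0.121 CPM in LM2, against 0.294 ± 0.0245 CPM in Parental. Ccr4, a receptor of T helper cells, rose 3.14-fold (edgeR adjusted p = 0.0014) to 0.616 ± 0.124 CPM in LM2, against 0.191 ± 0.0770 CPM in Parental. It rests on 23, 16 and 27 counts in LM2 and 12, 4 and 8 counts in Parental. Counts this low can pass the low-count filter through the line where they are higher, so the direction of Ccr4 is a description only. In TPM the lines overlapped for Ccr4, at 0.380, 0.305 and 0.793 in LM2 and 0.428, 0.103 and 0.123 in Parental.

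Apart from Ackr3, the receptors named here that bind chemokines of the set were low or did not pass. Cxcr2, the receptor of Cxcl1 and Cxcl5, had 7.24 ± 0.700 CPM in LM2 and 6.21 ± 0.133 CPM in Parental (SD, n = 3 each, edgeR adjusted p = 0.0563), and 12.1% of its 31-base words recur elsewhere. Cx3cr1 had 11, 9 and 8 counts in LM2 libraries and 10, 8 and 10 counts in Parental libraries. Ccr2 had 2, 3 and 10 counts in LM2 and 8, 0 and 6 counts in Parental. Ccr1 and Ccr3 were at 0 counts in every library, Cxcr3 and Cxcr4 had 0 counts in LM2 and 3 summed counts each in Parental, and Cxcr6 had 6 in LM2 and 12 in Parental.

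**Figure D5:**
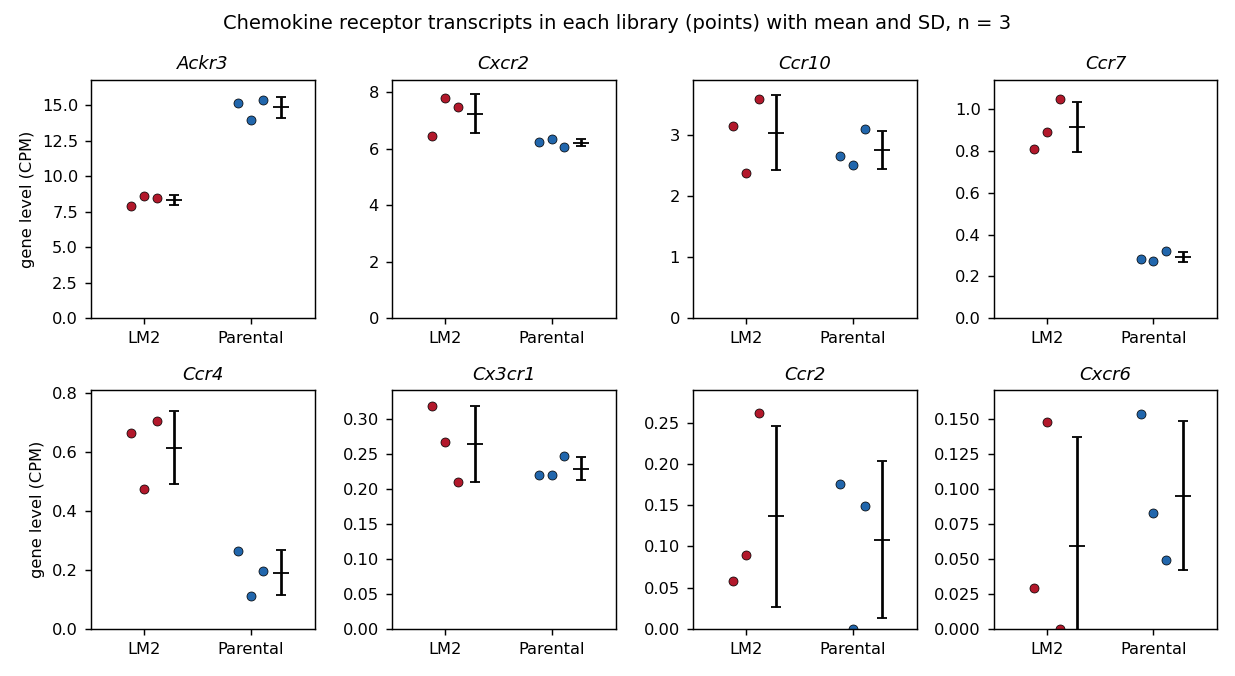
Level of 8 chemokine receptor genes in CPM in every library, LM2 at the left of each panel and Parental at the right, with the mean and SD beside the points (n = 3, bars cut at 0). Ackr3 is lower in LM2, Ccr7 and Ccr4 are higher, and the Cx3cr1, Ccr2 and Cxcr6 points stay at or below 0.318 CPM.

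Genes that release or trim chemokines moved in both directions. Of 10 genes 9 were tested, and 5 rose, 2 fell and 2 did not pass, with a median log2 fold change of 0.14. Among all tested genes 31.4% rose and 31.1% fell. Adam10 rose 1.17-fold to 181 ± 3.09 CPM in LM2, against 155 ± 1.02 CPM in Parental (edgeR adjusted p = 6.28e-08), and Adam17, the other main sheddase of Cx3cl1, rose 1.09-fold. The metalloproteases Mmp14 and Mmp2, which can cut chemokines, rose 1.37-fold and 2.49-fold. The remaining called gene, Ctss, a lysosomal protease, had 42 summed counts in LM2 and 0 in Parental. Ctss therefore passed the low-count filter through LM2 alone, and its rise is a description only. Dpp4, which removes the first residues of Cxcl10 and Cxcl12 among others, fell to 11.2 ± 0.628 CPM in LM2, against 15.2 ± 0.310 CPM in Parental (log2 fold change -0.44 ± 0.06 SE, edgeR adjusted p = 3.89e-06). The iRhom gene Rhbdf1 fell by 0.13 on the log2 scale, while Rhbdf2, at 14.5 CPM in LM2 and 14.3 CPM in Parental, and Mmp9, at 2.06 and 1.88 CPM, did not pass. In TPM the lines overlapped for both Dpp4 and Rhbdf1, and Rhbdf1 averaged 77.5 TPM in LM2 and 76.8 TPM in Parental.

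Of 15 genes of heparan sulfate synthesis and syndecans 13 were tested, and 7 rose, 1 fell and 5 did not pass. Their median log2 fold change was 0.23, and 31.4% of all tested genes rose and 31.1% fell. Sulf2, an enzyme that removes sulfate groups from heparan sulfate, rose 5.17-fold to 20.5 ± 1.44 CPM in LM2, against 3.98 ± 0.431 CPM in Parental (edgeR adjusted p = 3.97e-16). The sulfotransferase Hs6st1 rose 2.12-fold to 80.5 ± 3.98 CPM, against 38.0 ± 0.414 CPM, and Hs2st1 rose 1.37-fold. Sdc2 fell by 0.11 on the log2 scale, and Sdc1, at 258 CPM in LM2 and 267 CPM in Parental, and Ndst1, at 223 and 224 CPM, did not pass.

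All 15 genes of NF-kB subunits, kinases and inhibitors were tested, and 11 rose, 3 fell and 1 did not pass. Their median log2 fold change was 0.24, and 31.4% of all tested genes rose and 31.1% fell. Tnip1 and Nfkbia, inhibitors that NF-kB itself induces, rose 1.58-fold and 1.75-fold. Nfkbia reached 31.6 ± 1.94 CPM in LM2, against 18.1 ± 0.981 CPM in Parental (edgeR adjusted p = 4.61e-11). Nfkb2 rose 1.29-fold. The kinase gene Ikbkb fell by 0.22, the subunit Rel by 0.41 and Ikbkg by 0.07 on the log2 scale, and Nfkbiz did not pass (edgeR adjusted p = 0.793). Of 17 receptors and adaptors upstream of NF-kB 5 rose, 8 fell and 4 did not pass, beside the same 31.4% and 31.1% of all tested genes. Their median log2 fold change was -0.013. The interleukin 1 receptor Il1r1 rose 3.25-fold to 10.1 ± 0.349 CPM in LM2, against 3.10 ± 0.324 CPM in Parental, Tnfrsf1b rose 1.54-fold and Tlr4 1.43-fold. Tnfrsf1a, the main receptor of tumour necrosis factor, fell to 120 ± 1.21 CPM in LM2, against 161 ± 2.70 CPM in Parental. The largest falls of the list were in Tlr2 and Tlr3, picked out after their values were seen. Tlr2 had 0.117 CPM in LM2 and 0.505 CPM in Parental, a log2 fold change of -2.03 (edgeR adjusted p = 0.00319). Tlr3 had 0.275 CPM in LM2 and 1.07 CPM in Parental, a log2 fold change of -1.93 (edgeR adjusted p = 0.000249). Both are low enough to pass the low-count filter through Parental, where they were higher, so their directions are a description only. Il1rap and Traf6 each fell by 0.22 on the log2 scale, while Irak1, at 199 CPM in LM2 and 193 CPM in Parental, and Il17ra, at 74.4 and 75.1 CPM, did not pass.

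Of 17 interferon receptor, STAT and IRF genes 12 rose, 3 fell and 2 did not pass, with a median log2 fold change of 0.39. Over all tested genes 31.4% rose and 31.1% fell. The kinase Jak1 rose 1.47-fold to 362 ± 3.60 CPM in LM2, against 246 ± 5.90 CPM in Parental (edgeR adjusted p = 1.7e-14). The transcription factor Irf8 rose 3.10-fold to 8.63 ± 0.656 CPM in LM2, against 2.78 ± 0.344 CPM in Parental, and the feedback inhibitor Socs3 rose 1.45-fold. Irf7, which was picked out after its values were seen, rose 9.25-fold, with 7.67, 7.92 and 12.1 CPM in LM2 libraries and 0.813, 1.32 and 0.892 CPM in Parental libraries. Ifngr1, a chain of the interferon gamma receptor, fell by 0.52, Tyk2 by 0.25 and Irf3 by 0.16 on the log2 scale. Irf2, at 30.8 CPM in LM2 and 30.6 CPM in Parental, and Socs1, at 12.9 and 12.7 CPM, did not pass. These gene lists were chosen with earlier results of these data known, and their part in the chemokine levels was not tested.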

How the data were processed

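Each library has 1 table deposited by the authors, holding estimated counts and TPM for every transcript, with lengths and effective lengths as other values in bases. Per the submitters' processing notes, kallisto 0.46.2, edgeR 3.32.1, FastQC and MultiQC were used and the build was GRCm39. Which transcript set was used, and whether strand was, is not given in the sources used here. The authors also deposited 11005 log2 fold changes per gene symbol, whose base and direction are not written in the table and were read from their closeness to the values computed here (median absolute difference 0.0243 over 10544 shared genes).

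Transcripts were matched to genes with GENCODE M21 (116408 of 117486 transcripts, 99.1%). Unmatched transcripts held 0.426% to 0.448% of a library's counts and were left out. For each gene the estimated counts of its transcripts were added up and rounded to whole numbers, and TPM values were added up. edgeR 4.0.16 (R 4.3.3; filterByExpr, TMM, robust quasi-likelihood, no covariate) tested LM2 minus Parental. The standard error is the absolute log2 fold change over the square root of F. CPM is after TMM scaling, and log2 CPM used a prior count of 2.

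The fit was checked on simulated counts. Adam17, Ctss, Irf7, Tlr2, Tlr3, Esr1, Col1a2, Cdh5, the leukocyte markers, Ccl28, Cxcr2 and untested genes were named outside the rule below, after their values were seen. DESeq2 1.42.0, limma 3.58.1, other filters and scalings, a length offset, TPM and left-out libraries were tried as alternatives. The 10 genes, the lists and the naming rule were chosen with earlier results of these data known. The rule named all 10 genes, each called ligand or receptor, and per other list up to 3 called genes a direction of at least 5 CPM and up to 2 abundant genes not called. It also took the 3 genes best correlated with the chemokine of smallest adjusted p. 1 receptor of the list is counted but not reported here. No protein sequence was used here.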

Additional observations from a re-analysis of the deposited data

How the results depend on the processing

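Cx3cl1, Ccl2 and Ccl7 were called higher in LM2 under all 16 alternatives, with log2 fold changes of 0.96 to 1.24, 0.46 to 0.66 and 1.20 to 1.66. Ccl5 was called under the 15 that tested it, at 0.97 to 1.72. Cxcl10 passed only without Parental replicate 2, and its log2 fold change over the left-out libraries ran from 0.51 to 1.0. Cxcl16 reversed to 0.023 by limma on log2(TPM + 1), with the filter and without it (0.023), to 0.10 on log2(TPM + 0.1) and to 0.034 with the effective length offset; the cause was not tested. The number of the 10 genes called ran from 3 with at least 1 CPM in 3 libraries, where Ccl5 was not tested, to 5 without Parental replicate 2, which added Cxcl10, and by limma on log2(TPM + 1) with no filter, which added Cxcl1. With no filter on TPM, 2597 genes were called lower. Same-numbered deviations from the line means correlated at -0.0780, 0.0452 and 0.0147, so no shared pattern by replicate number was seen. These values cannot decide whether the libraries were paired by design, which the labels do not state. With the replicate block 8250 genes and 4 of the 10 were called, and it changed no call among the 10. Depth limits Cxcl1, Cxcl5, Cxcl12 and Cxcl14, which had at most 6 counts in a library.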
